A study of Micractinium conductrix and Chlorella sorokiniana with 12 samples.

Results

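The 100 most abundant transcripts of the free-living green alga Chlorella sorokiniana UTEX 1602 are described here across 6 RNA-seq libraries. They were chosen from the 9587 genes of the species' table as the rows of highest median FPKM (fragments scaled to gene length and library size) over the 6 libraries. Rows whose libraries at pH 5.7 and pH 7.6 did not overlap and whose group means were 3-fold or more apart were to be left out. That condition removed 428 rows of the table but 0 of its 100 most abundant rows, and the highest row it removed, g3590, ranked 151. The 100 transcripts are therefore the plain top of the table. Their abundance and growth pH values are given as a description, because both were part of the rule.

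The cultures were grown in a modified freshwater medium at pH 5.7 (libraries 2, 4 and 57) or at pH 7.6 (libraries 1, 3 and 76). Poly(A)+ RNA of whole cells was sequenced, with 3 libraries per pH, and no label says that they came from separate cultures. Values per library are given below in the order 2, 4, 57 for pH 5.7 and 1, 3, 76 for pH 7.6. All libraries come from the same strain, and the labels name no mutation or transgene. The series holds a like design for Micractinium conductrix SAG 241.80, an endosymbiont of the ciliate Paramecium bursaria.

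In a growing green alga, a small number of gene families usually dominates the poly(A)+ RNA. Light-harvesting chlorophyll-binding proteins capture light for the photosystems, the small subunit of RuBisCO takes part in carbon fixation, ribosomal proteins and elongation factors serve translation, and tubulins and histones build the cytoskeleton and chromatin. The files name genes only by running identifiers and pair them with no product, so none of these roles is assigned to a transcript here, the labelled species could not be checked against marker genes, and no sequence is shown.

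The 100 transcripts spanned a range of median levels from 14741 FPKM for g8827 down to 1044 FPKM for g9450, and their middle value was 2877 FPKM. The lower edge is not a gap: g3511 and g9450, ranked 99 and 100, had medians of 1058 and 1044 FPKM, and g7240 and g6292, the next rows, had 1030 and 1012 FPKM. All 100 passed the filter for testing, a mean of at least 1 FPKM. For scale, the library medians over all genes lay between 19.7 and 21.4 FPKM. Only 2 of the 100, g8754 and g8755, carry consecutive numbers, and they ranked 2 and 3. Nothing used here relates the numbers to genome position.

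The most abundant transcript by median was also among the most variable. Gene g8827 had 23613, 8544 and 3325 FPKM at pH 5.7, against 53345, 20937 and 335 FPKM at pH 7.6. It was the highest transcript of libraries 1, 2 and 3, ranked 5 in library 4 and 51 in library 57, and ranked 247 in library 76. In library 1 it held 4.96% of all FPKM and in library 76 0.0201%.

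The transcripts ranked 2 to 9 had the opposite profile over the libraries. Gene g8754 had 6735, 11425 and 21944 FPKM at pH 5.7, against 7920, 11503 and 61903 FPKM at pH 7.6. Gene g8755 followed it, with 5816, 11395 and 18139 FPKM at pH 5.7, against 5704, 10331 and 49196 FPKM at pH 7.6. In each of g9490, g6174, g4698, g9488, g1062 and g8771, as in g8754 and g8755, library 76 was highest and library 57 was second. Their values in library 76 ran from 30203 FPKM for g9488 to 54362 FPKM for g1062. Gene g2877, ranked 10, took neither course, with 8121, 5027 and 7495 FPKM at pH 5.7, against 13575, 8077 and 10349 FPKM at pH 7.6, and its pH groups overlapped.

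**Figure D1:**
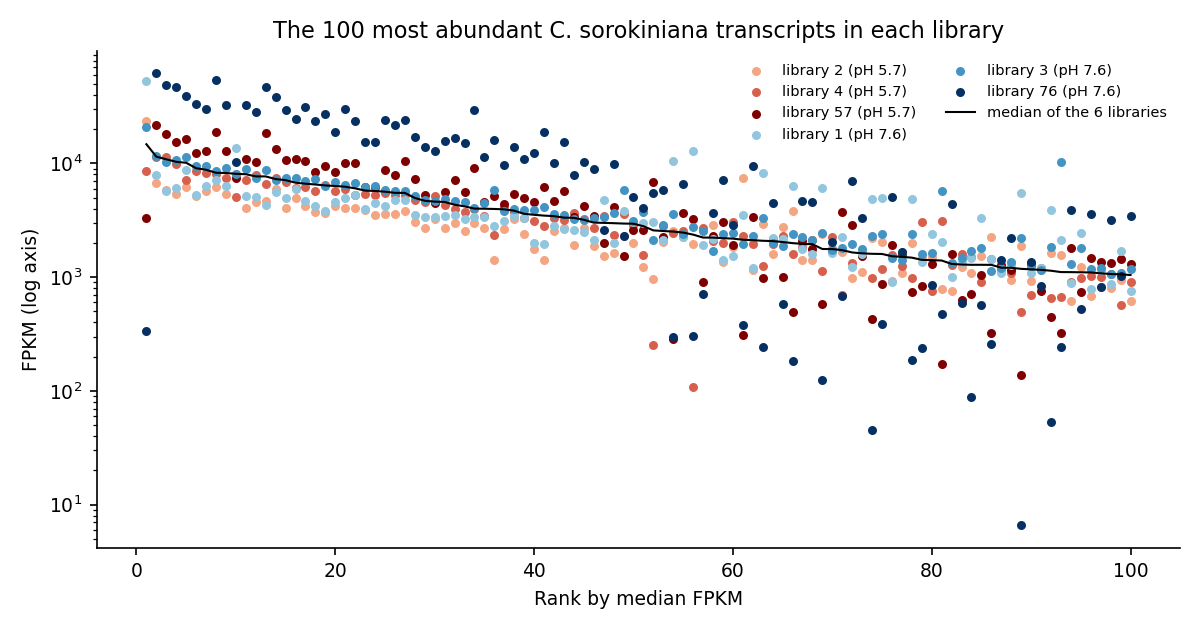
FPKM (log axis) of each of the 100 transcripts, ordered by median level, with 1 point per library and the median as a line. Library 76 is the highest point in 46 of the first 50 ranks, with g8827 at rank 1 among the exceptions at 335 FPKM, and in the lower ranks its points lie on both sides of the median.

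Together the 100 transcripts held 37.6%, 39.6% and 54.7% of all FPKM at pH 5.7, against 38.0%, 40.8% and 73.0% in libraries 1, 3 and 76 at pH 7.6. The group means were 44.0% ± 9.33 at pH 5.7 and 50.6% ± 19.4 at pH 7.6 (SD, n = 3 each), and the groups overlapped. Libraries 57 and 76 stood above the other 4, which lay between 37.6% and 40.8%. That excess lay in the upper 50 transcripts, with 46.3% and 66.2% in libraries 57 and 76, against 25.3% to 31.1% in libraries 1 to 4. The lower 50 held 8.39% and 6.74% in libraries 57 and 76, against 8.49% to 12.7% in libraries 1 to 4.

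Library FPKM sums ranged from 766511 to 1074955, apart from library 76, whose sum was 1664102. The 100 transcripts summed to 499185 and 1214392 FPKM in libraries 57 and 76, and to 288033 to 431997 FPKM in the numbered 4. All other genes summed to 413939 and 449710 FPKM in libraries 57 and 76, and to 478477 to 666268 FPKM in the numbered 4. As FPKM is a relative measure of bulk RNA, more of a transcript per cell, more cells that express it and less of all other RNA cannot be told apart.

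In M. conductrix, the 100 most abundant transcripts by the same rule, which left out 2 rows there, held 33.8% to 37.3% of FPKM at pH 5.7 and 34.9% to 39.6% at pH 7.6. Its libraries 57 and 76 had 37.3% and 37.0%, within the range of its other libraries. Genes were not matched between the species, so the lists are set side by side without a test.

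**Figure D2:**
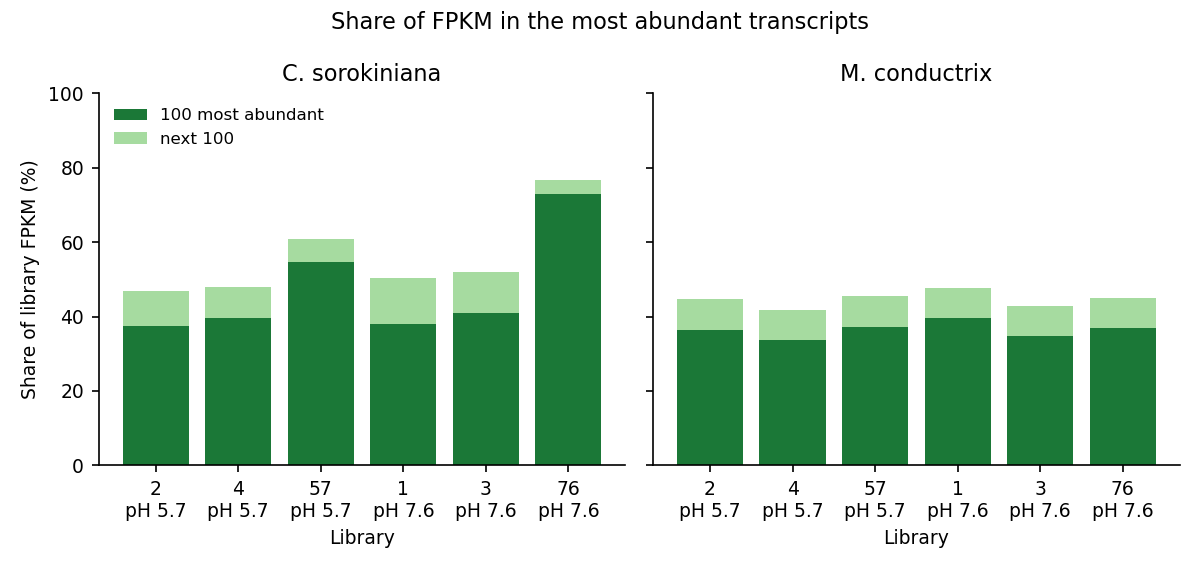
Share of the FPKM of each library (percent) in the 100 most abundant transcripts and in the 100 that follow, per library and species, with pH 5.7 on the left. In C. sorokiniana the 100 transcripts took 54.7% of library 57 and 73.0% of library 76, against 37.6% to 40.8% in the other 4 libraries.

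Membership of a library's own top 100 was stable for the upper part of the list, of which all 50 were in the top 100 of libraries 1 to 4 and 57, and 49 in that of library 76. Of the 100 transcripts, 53 were in the top 100 of all 6 libraries and 80 ranked within 200 in every library. In contrast, 8 ranked outside the first 500 in at least 1 library, and 5 outside the first 1000. Gene g1397 ranked 20 in library 1 and 7459 in library 76. The own top 100 of library 76 held 74 of the transcripts, and that of library 2 held 84.

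The highest library was a median of 5.78 times the lowest for each transcript. In 21 transcripts it was 10-fold or more, and in 6 it was under 2-fold. The 6 steady transcripts were g8310, g8040, g2900, g3178, g8492 and g5501 (the last 4 named after their values were seen), which all ranked in the lower 50 of the list by median level. Gene g8310 had the smallest spread, an SD of 0.13 of log2(FPKM + 1) over the 6 libraries, with 1226, 1170 and 1285 FPKM at pH 5.7, against 1090, 1196 and 1419 FPKM at pH 7.6. Next was g8040 (SD 0.17), with 1815, 2239 and 1697 FPKM at pH 5.7, against 1642, 1715 and 2034 FPKM at pH 7.6. With libraries scaled to equal totals these SDs were 0.33 and 0.40.

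At the other end were g1397 and g8827, with SDs of 3.47 and 2.62. Gene g1397 had 1876, 490 and 138 FPKM at pH 5.7, against 5492, 2226 and 6.59 FPKM at pH 7.6. Without library 76 these SDs were 2.08 and 1.53. The median SD of the 100 transcripts was 0.90, against 0.86 for the 100 rows that follow by median and 0.55 over all 9011 genes tested. In libraries 1 to 4 alone it was 0.38 for the 100 transcripts, 0.51 for the rows that follow and 0.43 over all genes tested. In M. conductrix the corresponding 100 had a median SD of 0.30, against 0.27 over its tested genes, and 77 of them differed by under 2-fold between their highest and lowest library.

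Libraries 57 and 76, named after the growth pH without its point, were compared with libraries 1 to 4, named by running numbers. No label calls this split a batch, and it was chosen because earlier results of these data showed libraries 57 and 76 apart. In 53 of the 100 transcripts both libraries 57 and 76 lay above all of libraries 1 to 4, a pattern found in 15.1% of the genes tested. In 22 both lay below, against 20.8% of the genes tested, and 25 overlapped. In the 100 rows that follow by median, both lay above in 14 and below in 41. The ranking median includes libraries 57 and 76. Among the 100 rows of highest median over libraries 1 to 4 alone, a choice in which libraries 57 and 76 took no part, both lay above in 44 and below in 34. That choice uses the other side of the comparison, so it favours rows that are lower in libraries 57 and 76. The 53 made up 40 of the upper 50 transcripts and 13 of the lower 50, while the 22 made up 2 of the upper 50, g8827 and g6406 (the second named after its values were seen), and 20 of the lower 50. Library 76 alone lay above libraries 1 to 4 in 68 transcripts and below in 24, against 27.2% and 34.4% of the genes tested. Library 57 alone lay above in 55 and below in 22, against 20.5% and 27.9%.

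These groups of transcripts were formed on the values themselves, so their profiles are described with no test. The 53 had largely alike profiles. Their log2 differences, libraries 57 and 76 minus 1 to 4, ran from 0.21 in g8310, the steadiest of the 100, to 2.44 in g3456. Their median level was 6829 and 16688 FPKM in libraries 57 and 76, and the numbered libraries 2, 4, 1 and 3 had 2967, 4103, 3450 and 4675 FPKM. Library 76 was above library 57 in 52 of them, by a median log2 difference of 1.38 with quartiles of 1.23 and 1.46, and g3456 was the exception. Within the numbered libraries the same transcripts were higher in 4 than in 2 in 50 of 53 and higher in 3 than in 1 in 52 of 53, by medians of 0.54 and 0.52 on the log2 scale. The 22 transcripts had a median level of 672 and 278 FPKM in libraries 57 and 76, and the numbered libraries 2, 4, 1 and 3 had 2117, 1461, 3680 and 2326 FPKM. They were less uniform: library 76 was below library 57 in 17 of 22, by a median over the 22 of -0.99 with quartiles of -2.15 and -0.16.

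**Figure D3:**
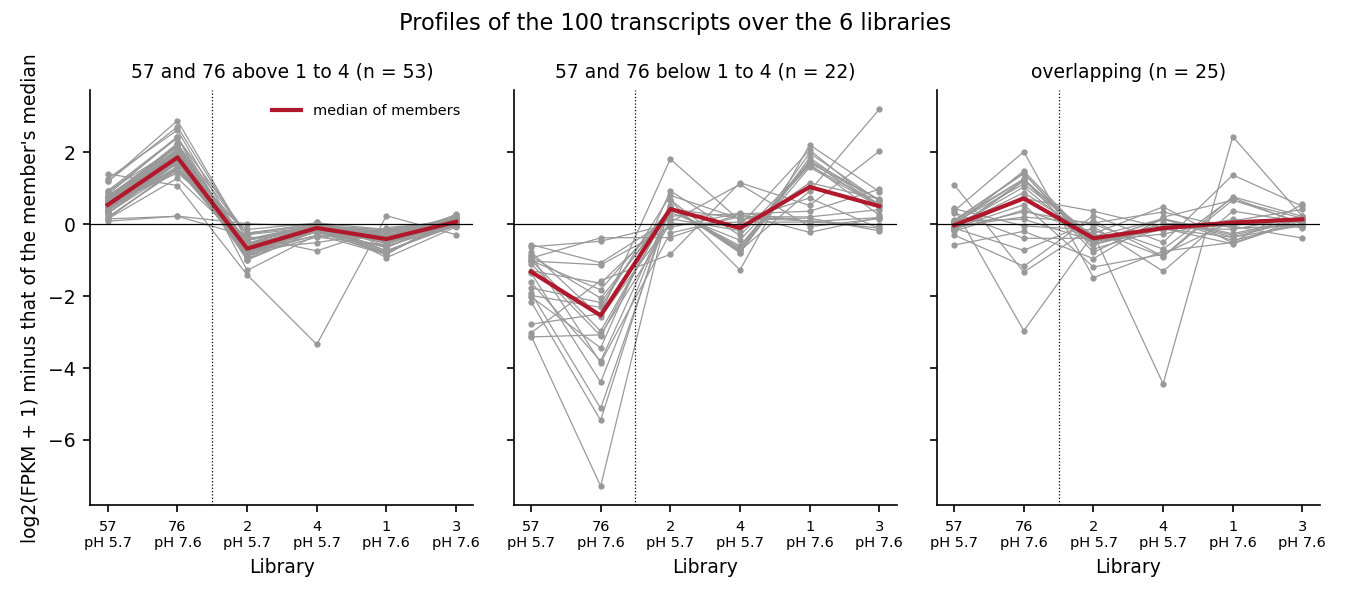
Level of each of the 100 transcripts over the 6 libraries, as log2(FPKM + 1) minus that of the transcript's own median, in 3 panels: both libraries 57 and 76 above libraries 1 to 4 (n = 53), both below (n = 22), or overlapping (n = 25). Grey lines are transcripts and red lines their medians. Most of the 53 run close together, while the 22 spread widely in library 76.

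In a limma fit with growth pH as a term, none of the 100 transcripts passed an adjusted p of 0.05 for libraries 57 and 76 against 1 to 4 (Benjamini-Hochberg over 9011 genes), and 46 genes, 0.51%, passed in the whole table. Because the split was chosen on these same data, its p-values describe the split and are not an independent test of it. The smallest adjusted p of the 100 was 0.0514, for g5245, and over the alternatives the smallest lay between 0.0352 and 0.301. At an unadjusted p under 0.05 there were 72 of the 100 transcripts, 51 of them higher and 21 lower in libraries 57 and 76, against 25.6% of all genes, 10.4% higher and 15.2% lower. That count was 33 without library 2 (21.4% of all genes), 44 without library 3 (17.4%), 16 without library 76 (11.6%) and 36 after quantile normalization (26.1%). In the 100 rows that follow by median, 50 had an unadjusted p under 0.05 in the fit of all 6 libraries, 13 higher and 37 lower. Of those rows, 2 passed after adjustment. By the names of the libraries the comparison is of 1 pair with the other 2 pairs, and this fit treats the 6 libraries as independent. With the pairs as a random replicate block, whose estimated correlation was -0.02 once both terms were fitted, 2 of the 100 were called, both lower, against 1.01% of all genes. They were g5245 and g8912, named after their values were seen (limma adjusted p = 0.0493 and 0.0499), and 72 had an unadjusted p under 0.05, against 25.9%. That block rests on 3 pairs, and its correlation is taken as known in the test. A correlation below 0 makes the fit more lenient for a difference between pairs, not stricter. Its 1.01% of all genes called compares with 0.51% without the block. Among the 100 rows chosen on libraries 1 to 4 alone, the count without the block was 78 with 44 higher and 34 lower. As this choice favours rows lower in libraries 57 and 76, its counts and p-values are a description. That list shared 86 rows with the 100, and 2 of its rows, g7051 and g7549, both outside the 100, passed after adjustment (limma adjusted p = 0.0433 each). They are named after their values were seen.

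The median log2 difference of the 100 transcripts, libraries 57 and 76 minus 1 to 4, was 1.07, against -0.08 over all genes tested. It was 0.75 for the rows chosen on libraries 1 to 4 alone, a choice that favours lower differences. It was 0.62 without library 76, 0.66 with libraries scaled to equal totals, which moved the median of all genes to -0.44, and 0.29 after quantile normalization. By abundance, the median difference was 1.63 for ranks 1 to 25, 1.26 for ranks 26 to 50, 0.14 for ranks 51 to 75 and -0.46 for ranks 76 to 100. It was -0.76 for ranks 101 to 200 and -0.54 for ranks 201 to 500. These ranks rest on medians that include libraries 57 and 76, and the differences by rank were not repeated with ranks from libraries 1 to 4. In the M. conductrix list the median difference was 0.17, and libraries 57 and 76 lay above 1 to 4 in 17 transcripts and below in 0, against 16.8% and 19.1% of the M. conductrix genes tested.

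**Figure D4:**
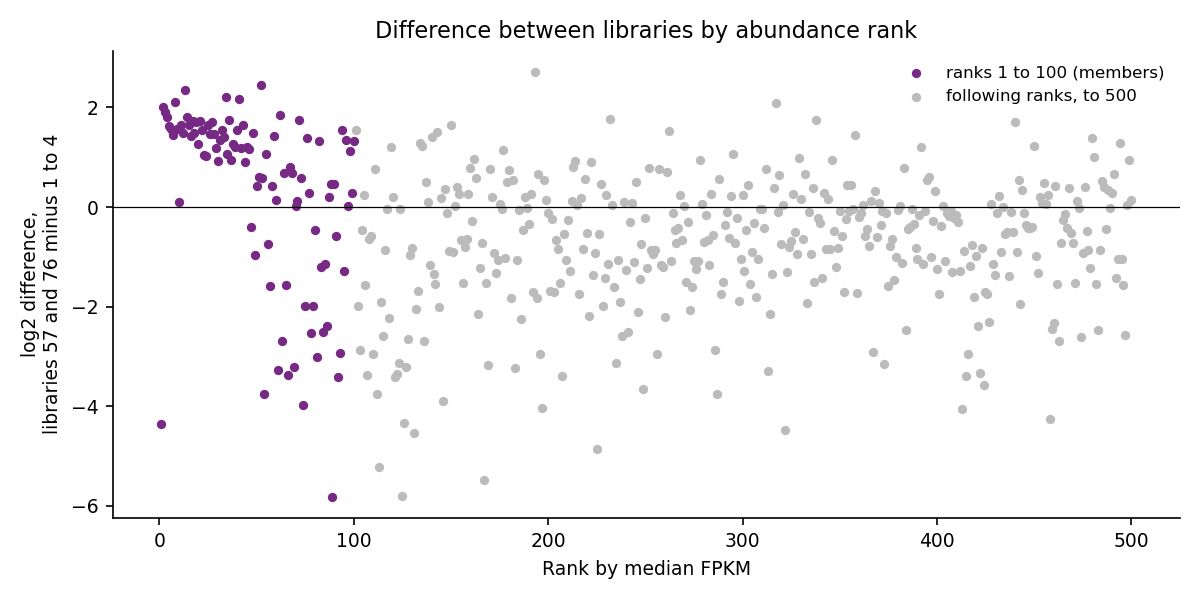
Log2 difference in level, libraries 57 and 76 minus libraries 1 to 4 (growth pH as a term), against rank by median FPKM for ranks 1 to 500. The ranking median includes libraries 57 and 76 themselves. The 100 transcripts are in purple. Apart from g8827 at rank 1, the points of the first 25 ranks lie above 0, with a median of 1.63, and those of ranks 76 to 100 have a median of -0.46.

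The largest positive differences among the 100 were those of g3456 and g3992, and the largest negative ones those of g1397 and g8827. Gene g3992 had 18609 and 47403 FPKM in libraries 57 and 76 and 4648, 6648, 4342 and 8721 FPKM in the numbered libraries 2, 4, 1 and 3, a log2 difference of 2.34 (SE 0.51; limma adjusted p = 0.0772). Gene g3456 had 6829 and 5452 FPKM in libraries 57 and 76, and the numbered libraries 2, 4, 1 and 3 had 972, 253, 3043 and 2111 FPKM, and its difference was 2.44 (SE 0.80; limma adjusted p = 0.138). Its difference was 1.10 without library 57 and 3.78 without library 76. Its levels in libraries 2 and 4 lay below those in libraries 1 and 3. The differences of g1397 and g8827 were -5.82 and -4.37 (SE 1.39 and 1.10; limma adjusted p = 0.0842 and 0.0933). Without library 76 they were -2.79 and -2.09.

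Growth pH was part of the rule, although it removed 0 of the 100 most abundant rows. The counts by growth pH are given beside those of all genes and nothing is read from them. None of the 100 was called in the limma fit of pH 5.7 minus pH 7.6, and 0% of the 9011 genes were called. At an unadjusted p under 0.05 there were 0 of the 100, against 7.49% of all genes. With the libraries compared within pairs (2 and 1, 4 and 3, 57 and 76), 0 of the 100 were called, against 1.04% of all genes, and 3 had an unadjusted p under 0.05, against 13.3%.

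The pH groups overlapped in 97 of the 100 and did not in g5641, g9478 and g852, named after their values were seen, which were lower at pH 5.7. Over all genes tested, 11.8% did not overlap, and 4.66% did not overlap and were lower at pH 5.7. Gene g9478 had 1231, 1576 and 2608 FPKM at pH 5.7, against 3000, 3739 and 4094 FPKM at pH 7.6, and its group means were 2.00-fold apart. Those of g5641 and g852 were 1.51-fold and 1.53-fold apart. Another 3 transcripts, g925, g1397 and g7664, had group means 4.94-fold, 3.09-fold and 3.00-fold apart, lower at pH 5.7, and stayed in the list because their libraries overlapped. In g925 that gap rests on library 3: it had 1551, 665 and 325 FPKM at pH 5.7, against 2105, 10199 and 244 FPKM at pH 7.6. On the log2 scale, pH 5.7 minus pH 7.6 was 0.15 in g1397, opposite in direction to its group means, and -1.32 in both g7664 and g925.

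On the log2 scale the 100 transcripts had a median difference of -0.53 for pH 5.7 minus pH 7.6, against -0.01 over all genes tested. This value followed the libraries and the scaling: it was -0.34 without library 2, -0.94 without library 1, -0.03 without library 76, -0.24 in libraries 1 to 4 alone, 0.02 with equal totals and 0.24 after quantile normalization, so its direction flips under the last pair of scalings. With equal totals the median of all genes was 0.49, which leaves the 100 at -0.48 relative to it, against -0.51 without that scaling. Relative to all genes the 100 were at 0.27 after quantile normalization and at -0.003 without library 76.

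Within the pairs, 85 of the 100 were lower in library 2 than in library 1 (median log2 difference -0.30), 78 lower in 4 than in 3 (-0.22) and 76 lower in 57 than in 76 (-1.21). Of the 9011 genes tested, 4607, 4474 and 4508 were lower in these pairs, with medians of -0.02, 0.004 and -0.001. Counts within pairs use values not scaled to equal totals. In each pair the pH 5.7 library had the lower FPKM sum: 766511 against 1074955, 872037 against 1057722 and 913124 against 1664102. In all 3 pairs, 56 were lower and 4 higher at pH 5.7, against 17.7% and 17.7% of all genes tested. The 4, named after their values were seen, were g1249, g8763, g2858 and g5245, and all belong to the 22 transcripts that were below in libraries 57 and 76. Gene g2858, which had the largest positive pH difference of the 100, had 1480, 3072 and 834 FPKM at pH 5.7, against 1358, 1585 and 236 FPKM at pH 7.6, a log2 difference of 0.96 with overlapping groups. That difference was 0.09 without library 76, 0.48 without library 4 and 0.23 with array weights. The next was g8904 at 0.78, with 1085, 1489 and 707 FPKM at pH 5.7, against 1483, 1708 and 88.0 FPKM at pH 7.6. That value rests on library 76, since g8904 was at -0.61 without it. The largest negative differences were those of g3456 at -1.46 and g925 at -1.32. Without 1 library, that of g3456 ran from -2.72 (without library 57) to -0.34 (without library 4), and that of g925 from -2.74 (without library 76) to -0.05 (without library 3).

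**Figure D5:**
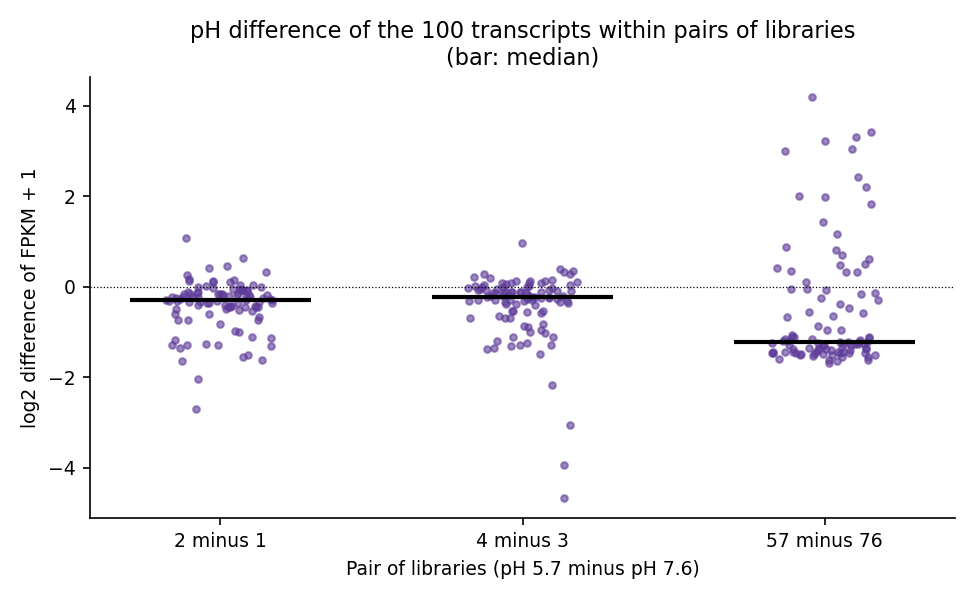
Log2 difference in FPKM + 1 between the pH 5.7 and the pH 7.6 library of each pair, with 1 point per transcript and a bar at the median. The medians are -0.30, -0.22 and -1.21, against -0.02, 0.004 and -0.001 over all genes tested. The differences of libraries 57 and 76 spread from -1.70 (g8815) or lower to above 4. With libraries scaled to equal totals or quantile normalized, the median pH difference over all 6 libraries is 0.02 or 0.24 in place of -0.53.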

How the data were processed

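The deposited values are FPKM, made by the authors in 1 table per species with 1 column per library. Tools listed in the submitters' processing notes are Cuffnorm, HISAT2, Picard, Trimmomatic and FastQC, without versions or roles. No source used here gives the genome build, gene models, strand or scaling between libraries. Reads shared between similar genes could therefore not be judged.

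The members, the lists and the tests were chosen with earlier results of these data known. The tests ran on log2(FPKM + 1) in limma 3.58.1 under R 4.3.3 (eBayes with a mean-variance trend, 2-sided). Genes averaging at least 1 FPKM over the 6 libraries entered, with Benjamini-Hochberg adjustment over all of them and a threshold of 0.05. The script was tested on simulated data in which libraries varied independently, so pairs that vary together were not covered. Fold changes on log2(FPKM + 1) understate changes of low genes. Tables were made with Python 3.11.15, numpy 2.4.6 and pandas 2.3.3.

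Named genes were the 10 of highest median, the last 2 inside and the first 2 outside the list, and the 2 at each end of both differences and of the SD over libraries. Since separate cultures are not stated, p-values reflect only variation among these libraries, possibly technical. The labels give the pH groups no shared number. Pairs were read from the names, and deviations from the group means correlated within them, over all genes tested, by 0.40, 0.58 and 0.48. No mismatched pair was correlated for comparison. The group means include libraries 57 and 76, which stood apart, so these correlations cannot tell the pairing from that split. The files hold no read totals, so no counting interval was computed. The commonest ratio between low values put a fragment's worth in FPKM at 0.669 to 1.04 times that in library 1. No columns of the C. sorokiniana table were identical (0 pairs).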

Additional observations from a re-analysis of the deposited data

How the results depend on the processing

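Growth pH called 0 of the 100 transcripts under every alternative run, against 0% to 2.93% of all genes, the most with array weights. At an unadjusted p under 0.05 the count of 0 became 2 after quantile normalization (7.32% of all genes), 1 with no trend (7.54%), 5 with array weights (20.8%), 3 with the replicate block (13.3%) and 2 in libraries 1 to 4 alone (14.6%), and 0 to 7 when 1 library was left out (4.78% to 13.4%). The median pH difference was 0.24 after quantile normalization and -0.94 to -0.03 when 1 library was left out. The pH difference of g8904 reversed to -0.42 with array weights, -0.32 in libraries 1 to 4 alone and -0.61 without library 76, within a range of -0.61 to 1.53 when 1 library was left out.

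For libraries 57 and 76 against 1 to 4, the 0 transcripts called became 6 lower with equal totals (3.24% of all genes called), 1 lower after quantile normalization (g8912; 2.65%), 1 lower with no trend (g5245; 0.555%), 2 lower with the pairs as a random replicate block (1.01%) and 2 lower with rows chosen on libraries 1 to 4 (0.51%). The 72 at an unadjusted p under 0.05 became 36 after quantile normalization (26.1% of all genes) and 16 to 80 when 1 library was left out (11.6% to 25.1%). The median difference of the 100 was 0.29 after quantile normalization and 0.62 to 1.58 when 1 library was left out. In fits without library 57 or 76 the lone sample is assumed to vary like the others. The 53 above and 22 below were 37 and 16 after quantile normalization (18.8% and 16.4% of all genes), 65 and 21 with equal upper quartiles (24.6% and 12.3%), and 44 and 34 for rows chosen on libraries 1 to 4. For these shifts, the cause was not tested. The choice on libraries 1 to 4 favours rows that are lower in libraries 57 and 76. The list shared 82 to 95 of 100 rows with lists ranked by the mean, by the lowest value, after equal totals or without 1 library. The unadjusted counts, the counts above and below, the SD alternatives and the random block were added after seeing the data. With read totals unknown, counting error of low values such as g1397 in library 76 is not known.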
